A study of Mus musculus with 50 samples.

Results

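The DMXAA response of SGK1 knockout cells was examined in RAW264.7, a mouse macrophage line. Its members are 7 of the 50 RNA-seq libraries in the series, chosen by their labels. They are 3 libraries of SGK1 KO cells without treatment (D, E and F) and 4 of SGK1 KO cells given 10 µg/mL DMXAA for 2 h (O, P, Q and R). All have lettered titles and are here grouped as batch b2, apart from the numbered libraries, here b1. The same treatment in 7 libraries of empty vector control cells from b2 (A, B and C at rest, K, L, M and N with DMXAA) was set beside it. A library of SGK1 KO cells with the same DMXAA treatment, titled a rerun and here called S, was kept out of the groups. It is given beside the results. Besides their genotype and DMXAA, no allele or agent is named for these groups. The labels name 1 SGK1 KO line without saying whether it was a clone, and do not say whether libraries came from separate cultures, so the tests speak of the spread among these libraries, which may be technical.

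DMXAA is an agonist of mouse STING, the endoplasmic reticulum receptor that normally senses cyclic dinucleotides made after DNA enters the cytosol. Active STING recruits the kinase TBK1, which phosphorylates IRF3, and it also activates NF-kB. IRF3 drives interferon beta and a set of genes directly, and secreted interferon then acts through its receptor on a broader set of interferon-stimulated genes, many of which macrophages also hold at a basal level. SGK1 is a serum- and glucocorticoid-regulated kinase downstream of PI3K, related to AKT.

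Depth was 73296979 to 112007140 counts in the 7 knockout libraries, and 15045 to 17698 genes had a count. Levels are CPM, counts divided by each library's size after TMM scaling, and fold changes are log2 ± SE from edgeR's quasi-likelihood test. A gene was called at an adjusted p under 0.05. Of 38 markers of other cell types, 24 were at 0 in all 7 libraries, among them all T cell, epithelial and NK cell markers, and the summed level of all 38 was 0.719 to 2.2 CPM at rest and 1.44 to 4.13 CPM with DMXAA. Of 33 listed macrophage identity genes 27 had enough counts to test and the others did not. Among the 27 were Mpeg1 (314 to 353 CPM at rest), Csf1r (2539 to 2792 CPM) and Lyz2 (3633 to 5169 CPM). Library composition varied within and between the groups. The slope of log2 CPM on log2 transcript length, relative to the mean of the 20 b2 libraries, was 0.002, 0.174 and 0.267 in D, E and F and -0.062, 0.143, -0.008 and 0.063 in O, P, Q and R, so long transcripts were over-represented in E, F and P. Ribosomal protein genes took 2.64% to 5.79% of counts, with the lowest share in F. Rn18s, an rRNA gene that poly-A selection should leave out, took 0.77%, 0.742% and 1.36% of counts at rest and 0.278% to 0.475% with DMXAA, and control libraries also had more at rest (0.572% to 0.761%) than with DMXAA (0.292% to 0.42%). In S the slope was -0.187, 18508 genes had a count and Rn18s took 0.13%. Apart from the length trend, the part of these measures in the results was not tested.

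Sgk1, the targeted gene, was low in the knockout. It lay at 0.241, 0.146 and 1.58 CPM in D, E and F and at 6.57, 1.79, 5.46 and 2.76 CPM in O to R, against 1.02 to 2.94 CPM in control cells at rest and 24.7 to 38.1 CPM with DMXAA. Library F overlapped the resting controls, and every knockout library with DMXAA lay below every control library with DMXAA. The change with DMXAA in the knockout was 2.65 ± 0.84 and was not called (adjusted p = 0.107), while control cells gave 4.02 ± 0.32 (adjusted p = 3.03e-05). The difference between the responses was -1.37 ± 0.9 (adjusted p = 0.703). Transcript levels do not show where the gene was edited. Sgk3, the related kinase, lay at 113 to 132 CPM at rest and 115 to 131 CPM with DMXAA, with overlapping groups (adjusted p = 0.954).

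DMXAA raised 479 of 14663 genes tested in SGK1 KO cells (3.27%) and lowered 284 (1.94%). In control cells it raised 636 of 14478 (4.39%) and lowered 378 (2.61%). Of the 763 genes called in the knockout, 403 were called in the same direction in control cells, which is 52.8% of the knockout calls and 39.7% of the 1014 control calls. Called higher were 12 of 17 IRF3 early genes, 9 of 18 cytokine and chemokine genes, 10 of 26 NF-kB genes and 12 of 33 immediate early genes, and of 45 interferon-stimulated genes 7 were called higher and 10 lower. The counts depend on the libraries used: they were 245 higher and 71 lower without E, 258 and 84 without Q, 327 and 103 without F, 319 and 124 without O, 381 and 186 without R, and 805 and 503 without D. The control counts were 375 and 152 without A. Removing the length trend gave 859 higher and 898 lower, a share of 48.9% higher among the calls against 62.8%. Of the 21 gene lists 19 then held more calls and 2 as many, and with 46 libraries of b1 and b2 in the fit all 21 held more.

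The list of IRF3 early genes, which was not limited to direct IRF3 targets, had the highest median change of the 21 lists. Of 20 listed genes 17 could be tested, 12 were called higher and 1, Irf7, lower, with a median log2 fold change of 3.62 against 0.008 over all genes tested. In control cells 15 of 18 were called higher and none lower, with a median of 2.7. Ifit1 (ENSMUSG00000034459.9, chr19:34618271-34627409 on GRCm39), which encodes an RNA-binding protein that blocks translation of viral RNA, lay at 0.845, 1.18 and 0 CPM at rest and 210.3, 152, 233 and 168 CPM with DMXAA. All 4 treated libraries were far above the resting ones, a change of 8.14 ± 0.8 (adjusted p = 0.000888), and S lay at 164 CPM. Cxcl10, a chemokine that draws T cells, lay at 2.0, 2.9 and 1.47 CPM at rest and 297, 206, 309 and 123 CPM with DMXAA (6.77 ± 0.42, adjusted p = 1.56e-05). Library R was the lowest of the treated libraries for Cxcl10 and still above every resting library. Rsad2, which encodes the antiviral enzyme viperin, rose (0.304 to 0.507 CPM at rest and 20.6 to 35.3 CPM with DMXAA, 5.98 ± 0.3). Its treated level in the knockout was below the 229 to 367 CPM of treated control cells, whose resting level was 2.7 to 3.88 CPM. The difference between the 2 responses on the log2 scale was not called (-0.57 ± 0.35, adjusted p = 0.672).

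Other early genes rose as well. The ubiquitin-like modifier Isg15 rose (0.365 to 0.718 CPM at rest and 8.63 to 23.8 CPM with DMXAA, 4.98 ± 0.45) and the chemokine Ccl5 (0.134 to 0.271 CPM at rest and 3.17 to 10.9 CPM with DMXAA, 5.27 ± 0.61). Both were lower in P and R than in O and Q, and highest in S (33.9 and 16.5 CPM). Ifit3 (4.86), Oasl1 (4.32), the RNA sensor MDA5 gene Ifih1 (3.62), the ubiquitin ligase gene Peli1 (3.35), Ifit2 (2.39), Cmpk2 (1.85) and the RIG-I gene Ddx58 (1.02) rose too. Reads of the Ifit and Oas families may be shared between their members. The interferon beta gene Ifnb1 was at 0 in D, E and F and at 1.63, 1.12, 1.57 and 0 CPM in O to R, where the assumed floor of 12 counts per library is at most 0.161 CPM in the resting libraries. Its mean with DMXAA was at least 6.71-fold above that floor, but library R had none and the gene was not called (adjusted p = 0.0772), though it was with the length trend removed (adjusted p = 0.0323). Ifnb1 reached 3.22 CPM in S. In control cells it was at 0 at rest and at 7.49 to 22.7 CPM with DMXAA, above every treated knockout library and S; with both groups at 0 at rest no difference of responses could be estimated. Cxcl11 (0.45, adjusted p = 0.821), Isg20 (1.65, adjusted p = 0.727) and Usp18 (-0.66, adjusted p = 0.155) did not pass.

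**Figure D1:**
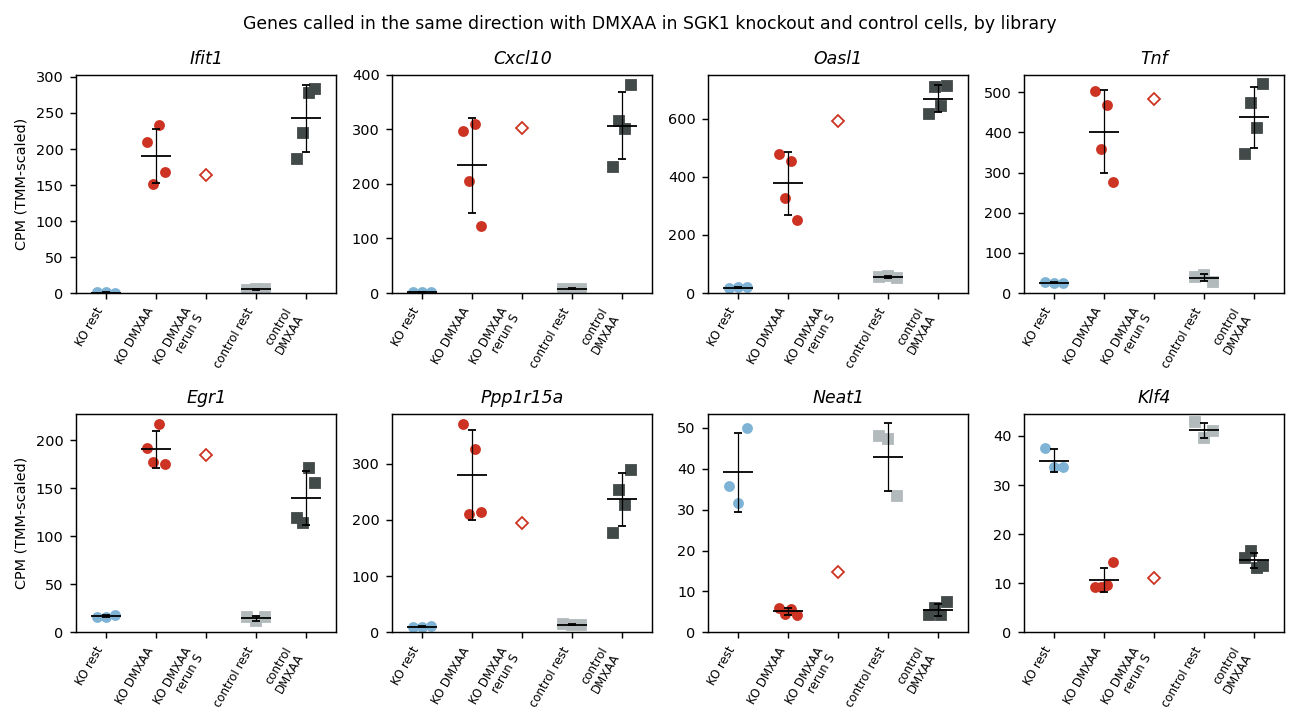
Level in CPM (vertical axes, from 0) of 8 genes in each library: SGK1 KO at rest (D, E, F), SGK1 KO with DMXAA (O, P, Q, R), the rerun library S (open diamond), and control cells at rest and with DMXAA. Bars and whiskers are group means and SD. Ifit1, Cxcl10, Oasl1, Tnf, Egr1 and Ppp1r15a are higher and Neat1 and Klf4 lower in all 4 treated knockout libraries than in the 3 at rest, and S lies on the treated side of the resting libraries for each.

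The genes of tumour necrosis factor and of several chemokines rose in the same libraries. Of 31 listed genes 18 could be tested, and 9 were called higher and 1 lower (median 1.74), beside 3.27% and 1.94% over all genes. In control cells 7 of 17 were called higher and 1 lower. Tnf lay at 26.4, 25.99 and 24.4 CPM at rest and 502, 359.7, 467 and 276 CPM with DMXAA (3.96 ± 0.22, adjusted p = 9.3e-06). The treated libraries O and Q held more of it than P and R. The same order held for the macrophage inflammatory proteins: Ccl4 went from the range 1.23 to 2.78 CPM to 451, 248, 407 and 175 CPM (7.29 ± 0.46) and Ccl3 from the range 13.99 to 21.7 CPM to 392, 293, 365 and 151 CPM (4.02 ± 0.34). Ccl2, a monocyte chemokine, had no count in the 3 resting libraries and lay at 2.81, 0.412, 1.55 and 1.25 CPM with DMXAA, with a mean at least 9.34-fold above the floor. Cxcl2 rose (0 to 0.243 CPM at rest and 1.44 to 4.75 CPM with DMXAA). The TNF family ligands Tnfsf9 (1.09) and Ltb (1.01), the cytokine gene Il15 (1.93) and the chemokine gene Ccl9 (0.5) rose less. Ptgs2, the inducible cyclooxygenase, fell (5.08 to 11.0 CPM at rest and 1.28 to 3.22 CPM with DMXAA, -1.85 ± 0.38, adjusted p = 0.0231). Many cytokines of activated macrophages, among them Il6, Il1b, Il12b and Nos2, were too low to test. The list had 4 called higher without E or Q and 5 without O or F, and none lower without E, F, Q or R.

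NF-kB induces its own inhibitors, and the A20 gene and an atypical IkB gene had the largest changes among its genes. Of 26 genes, 10 were called higher and none lower in the knockout (median 0.37), beside 3.27% and 1.94% over all genes. When 1 library was left out 7 to 11 were called higher. A20, encoded by Tnfaip3, lay at 4.35, 8.34 and 5.72 CPM at rest and 96.5, 97.6, 104 and 88.1 CPM with DMXAA (3.97 ± 0.22). Nfkbiz, an atypical IkB that works in the nucleus, rose (4.47 to 4.84 CPM at rest and 57.9 to 68.6 CPM with DMXAA, 3.77 ± 0.12, adjusted p = 4.5e-07). The RNase gene Zc3h12a (2.53), which degrades cytokine transcripts, the kinase gene Map3k8 (1.77), Zc3h12c (1.21) and the inhibitor genes Nfkbid (1.01) and Nfkbia (0.98) rose. Of the subunits, Relb (1.0) and Rel (0.86) rose, while Nfkb1 (0.15, adjusted p = 0.327), Nfkb2 (0.45, adjusted p = 0.0604) and Rela (0.3, adjusted p = 0.126) did not pass. None of the 26 passed edgeR's test of a difference from control cells, with 5 at an unadjusted p under 0.05, beside 1501 of all 15924 genes tested.

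Immediate early genes are transcribed without new protein synthesis after a signal. Of 33 tested 12 were called higher and 2 lower, beside 3.27% higher and 1.94% lower over all genes. The list had 10 to 12 called higher when 1 library was left out. Egr1, a zinc finger factor downstream of MAP kinases, lay at 16.4, 16.3 and 17.8 CPM at rest and 192, 178, 217 and 175 CPM with DMXAA (3.49 ± 0.12, adjusted p = 4.5e-07). The spread within each group was small beside the change. Egr2 (3.91), the small Maf gene Maff (3.7), Ier3 (3.37), Atf3 (3.14), Csrnp1 (2.85) and Egr3 (1.52) rose, as did Zfp36 (1.47) and Zfp36l1 (1.45), which encode proteins that destabilise AU-rich transcripts. Fos (-0.28, adjusted p = 0.38) and Jun (-0.13, adjusted p = 0.642) were not called. Klf4 fell from 37.6, 33.6 and 33.7 CPM to 9.2, 9.3, 9.74 and 14.3 CPM (-1.72 ± 0.18) and Klf10 also fell (-1.37). Among the MAP kinase phosphatases and Sprouty proteins that limit the same pathway, Dusp4 rose (1.35) and Dusp6 fell (-1.15), with 12 of 14 not passing. No fall was called on that list without E, F, O, Q or R. S reached 12.4 CPM for Dusp4, near the 8.64 to 11.4 CPM of the resting libraries and below the 24.8 to 27.9 CPM of O to R.

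Of 25 genes of the ATF4 and amino acid response 6 were called higher and none lower, beside 3.27% and 1.94% over all genes. The genes of the BH3-only proteins PUMA and NOXA rose. Ppp1r15a, which encodes GADD34 and returns eIF2 alpha to its unphosphorylated state, lay at 9.19, 9.84 and 10.9 CPM at rest and 371, 211, 326 and 214 CPM with DMXAA (4.8 ± 0.24). It was the largest of the 6 rises, beside Sesn2 (1.16), Slc3a2 (0.95), Atf5 (0.91), Slc38a2 (0.86) and Atf4 (0.85). The rises numbered 9 without D and 4 without E, F, O or Q. Of 22 genes of the unfolded protein response, Dnajb9 (0.96) and Herpud1 (0.67) were called higher and none lower, and the chaperone gene Hspa5 did not pass (0.14, adjusted p = 0.421). Without E, F, O or Q 1 gene of that list was called. Bbc3, which encodes the BH3-only protein PUMA and is listed under both p53 and FOXO targets, rose from 17.3, 12.6 and 10.1 CPM to 258, 175, 235 and 172 CPM (3.97 ± 0.24). Pmaip1, the gene of the related protein NOXA, rose (28.4 to 31.5 CPM at rest and 82.4 to 113 CPM with DMXAA, 1.73 ± 0.13). The p53 targets as a list gave 4 higher and 2 lower of 22. Plk3 was the remaining one to rise (0.89), Zmat3 (-1.06) and Ccng1 (-0.65) fell, and Cdkn1a (-0.41, adjusted p = 0.121) and Mdm2 (0.46, adjusted p = 0.0568) were not called. The falls numbered 1 without E, F, O, P or Q. With the length trend removed they numbered 5, beside 898 of all 14663 genes tested.

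Of 31 tested genes of the knocked-out kinase's own pathway, the SGK and PI3K list, edgeR called 0 in the knockout. Over all genes it called 3.27% higher and 1.94% lower. At an unadjusted p under 0.05 were 7 of the 31, beside 2995 of all 14663 genes tested. Other fits did call some. With DESeq2 1 rose, and with the length trend removed 1 rose and 3 fell. With 46 libraries of b1 and b2 in the fit 3 rose and 6 fell. Over all genes DESeq2 gave 908 higher and 701 lower of 14663, of which 2290 had no adjusted p. The fit with the trend removed gave 859 and 898 of 14663, and that of 46 libraries 2294 and 2116 of 18315. With D as the single resting library, against O and Q, 3 rose and 2 fell. In control cells Sgk1 itself and Pik3cd (0.27), a catalytic PI3K subunit, rose. The knockout had 2 falls without D and 1 rise without F. FOXO factors, which SGK1 and AKT phosphorylate and keep out of the nucleus, and their targets gave 6 called higher and 3 lower of 21, against 7 and 4 of 20 in control cells. Ccng2 rose (6.04 to 8.29 CPM at rest and 18.3 to 23.2 CPM with DMXAA, 1.45 ± 0.17) and the cell cycle inhibitor gene Cdkn1b (28.97 to 31.3 CPM at rest and 71.3 to 78.8 CPM with DMXAA, 1.31 ± 0.1). Klhl24 (1.11), Gabarapl1 (0.78) and Bcl2l11 (0.7), which encodes the BH3-only protein BIM, rose too. Txnip, an inhibitor of glucose uptake, fell from 212, 212 and 197 CPM to 95.3, 94.97, 98.5 and 89.9 CPM (-1.14 ± 0.08). Trib1 (-2.09) and Cited2 (-0.42) fell too. None of the 21 passed edgeR's test of a difference from control cells, with 2 at an unadjusted p under 0.05, beside 1501 of all 15924 genes tested. Foxo1 (-0.65, adjusted p = 0.149) and Foxo3 (0.27, adjusted p = 0.292) were not called.

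Of 31 genes of the STING pathway itself 3 were called, 1 higher and 2 lower. Over all genes tested 3.27% were called higher and 1.94% lower. Sqstm1, the selective autophagy receptor, rose (0.96 ± 0.12, 178 to 213 CPM at rest), and the transcription factor gene Irf5 (-0.49) and the TBK1 adaptor gene Tbkbp1 (-0.54) fell. The list had no fall without E, O, P or Q, 1 without D, F or R, and 2 rises without D, F or R. With the length trend removed 2 rose and 5 fell, and with 46 libraries 6 rose and 7 fell. Over all genes those fits gave 859 higher and 898 lower of 14663, and 2294 and 2116 of 18315. The receptor gene Sting1 lay at 17.96 to 22.1 CPM at rest and 18.6 to 24.04 CPM with DMXAA, and was not called (adjusted p = 0.809). Tbk1 (0.42, adjusted p = 0.113), Irf3 (0.25, adjusted p = 0.531) and the DNA sensor gene Cgas (-0.14, adjusted p = 0.511) were not called either. Among 27 genes of other pattern recognition receptors and their adaptors, 7 rose and 1 fell, while 4 rose without F, O, Q or R. The peptidoglycan sensor Nod2 (2.96), the DNA sensor Aim2 (1.36 ± 0.11, 48.9 to 50.1 CPM at rest and 108 to 139.6 CPM with DMXAA) and Tlr2 (1.29 ± 0.09, 254 to 270.2 CPM at rest and 609 to 695 CPM with DMXAA) rose most, and the inflammasome gene Nlrp3 fell (-0.53). Interferon receptor and JAK-STAT signalling genes gave 1 call of 18, beside 3.27% higher and 1.94% lower over all genes. It was a fall of the feedback inhibitor Socs3 (6.64 to 7.54 CPM at rest and 1.5 to 3.43 CPM with DMXAA, -1.51 ± 0.3), and no gene was called without E or F. The receptor chains Ifnar1 (-0.16, adjusted p = 0.46) and Ifnar2 (-0.34, adjusted p = 0.0727) did not pass.

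**Figure D2:**
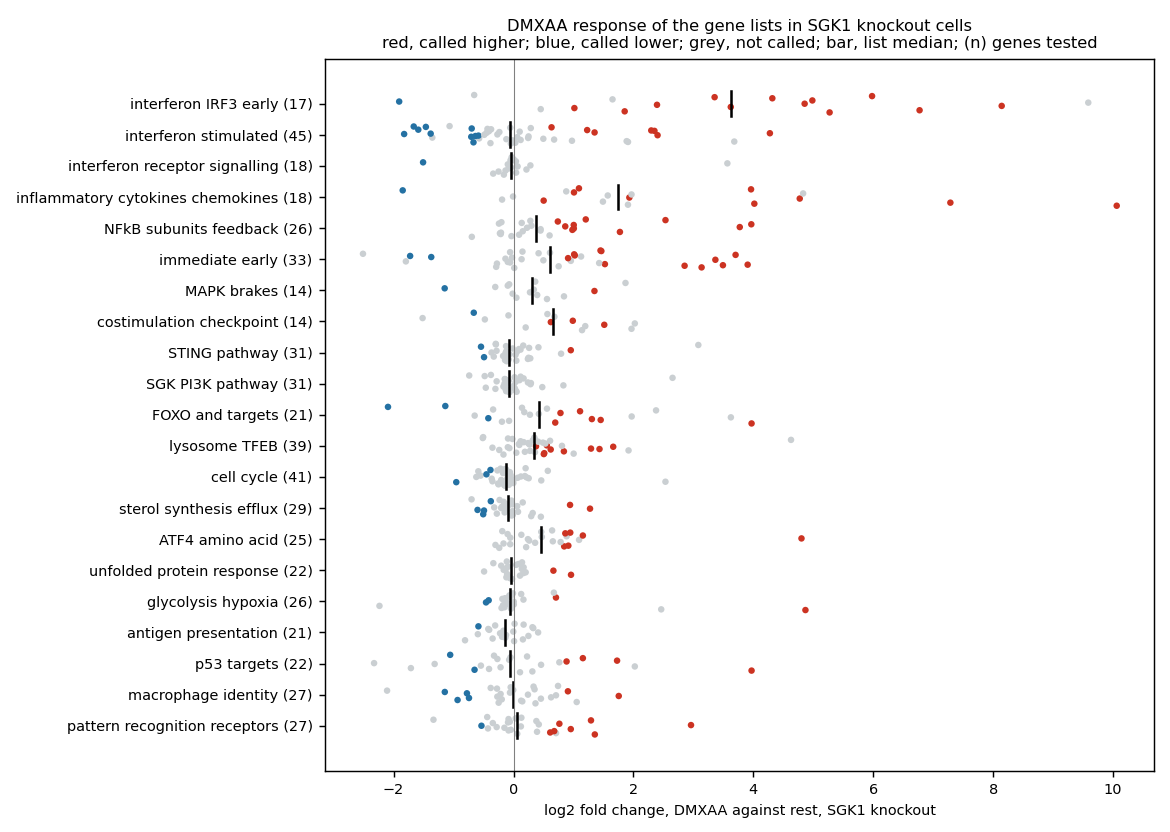
Log2 fold change, DMXAA against rest, in SGK1 KO cells (horizontal axis) for the tested genes of 21 lists (rows, number tested in brackets). Red points were called higher, blue points lower and grey points were not called, and black bars are list medians. The IRF3 early list has a median of 3.62 with Irf7 at -1.91, and the interferon-stimulated list spreads on both sides of 0. Genes with no count at rest, such as Ccl2 and Ifnb1, have fitted values that depend on the prior count.

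Of 45 tested interferon-stimulated genes 10 fell in the treated knockout libraries and 7 rose (median -0.055), beside 1.94% lower and 3.27% higher over all genes. In control cells 19 of 48 were called higher and none lower (median 0.36). On the IRF3 early list Irf7 fell in the knockout, where 12 of 17 rose. Irf7 (ENSMUSG00000025498.16, chr7:140842619-140846394 on GRCm39), the transcription factor that amplifies type I interferon, lay at 14.2, 9.85 and 17.6 CPM at rest and 3.43, 4.68, 3.62 and 3.11 CPM with DMXAA in the knockout (-1.91 ± 0.24, adjusted p = 0.00153). All 4 treated libraries were below all 3 at rest. In control cells Irf7 rose (79.9 to 82.5 CPM at rest and 98.0 to 122 CPM with DMXAA, 0.39 ± 0.08, adjusted p = 0.0175). Oas2, an activator of the antiviral RNase L, lay at 17.3, 16.4 and 22.2 CPM at rest and 4.28, 7.89, 4.14 and 4.78 CPM with DMXAA (-1.82 ± 0.25), with P the highest treated library. Oas3 of the same family went from 42.1, 52.6 and 46.8 CPM to 17.4, 21.5, 18.9 and 14.9 CPM (-1.38 ± 0.15, adjusted p = 0.000632). Trim30a lay at 11.0, 10.4 and 11.6 CPM and then at 2.38, 3.46, 4.28 and 5.9 CPM (-1.46 ± 0.28), the treated libraries spreading more than the resting ones. Xaf1 (-1.66), Slfn5 (-1.59), the RNA-activated kinase PKR gene Eif2ak2 (-0.67), Lgals3bp (-0.63) and Mndal (-0.58) fell as well. Irf9, part of the factor downstream of the interferon receptor, was among them (-0.7 ± 0.13, 25.8 to 32.7 CPM at rest and 16.7 to 19.9 CPM with DMXAA). Stat2, which binds IRF9, was not called (0.29, adjusted p = 0.271).

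The members that rose were Oasl2 (4.28), Mx2 (2.4), Rtp4 (2.35), Samd9l (2.3), Parp14 (1.35), Slfn2 (1.23) and Trim25 (0.63). All 10 genes that fell were already lower at rest in the knockout, with all 3 resting knockout libraries below all 3 resting control libraries. The same held for 6 of the 7 that rose and for 41 of the 45 tested, against 15.4% of all genes tested. Irf7 was at 13.9 ± 3.88 CPM (SD, n = 3) against 80.9 ± 1.36 CPM (n = 3), Oas3 at 47.2 ± 5.29 against 154 ± 10.7 CPM, and Irf9 at 29.5 ± 3.48 against 56.8 ± 3.3 CPM. Beyond this overlap the difference at rest was not tested. Outside the list, Epsti1 fell (-1.78), as did the transporter gene Tap1 (-0.59 ± 0.14). Tap1 was the single call among 21 antigen presentation genes, beside 3.27% higher and 1.94% lower over all genes. Its call was lost when D, E, F, O, P or Q was left out. With the length trend removed 6 antigen presentation genes fell, and 4 did with 46 libraries. Over all genes 898 of 14663 and 2116 of 18315 fell in those fits. The falls on the interferon-stimulated list numbered 4 without E or without Q, 5 without F, 6 without O and 9 without D, P or R. With the length trend removed they numbered 15.

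Rerun library S lay within or above the resting range for most of these genes. It held 15.5 CPM of Irf7, 21.3 of Oas2, 42.4 of Oas3, 11.5 of Trim30a and 3.88 of Xaf1, each within the range of the resting libraries. Of the 10 interferon-stimulated genes called lower, S lay within the range of the 3 resting libraries for 5, above it for 2 and below it for 3. With S added to the treated group 2 genes of the list were called lower by edgeR. The median change over the 10 was 0.038 for S alone, a single library, against -1.04 for O to R. For the 7 that rose, S lay above all 3 resting libraries for each (median 2.45 against 2.30). S is 1 library titled a rerun, so the rerun and the library cannot be told apart.

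**Figure D3:**
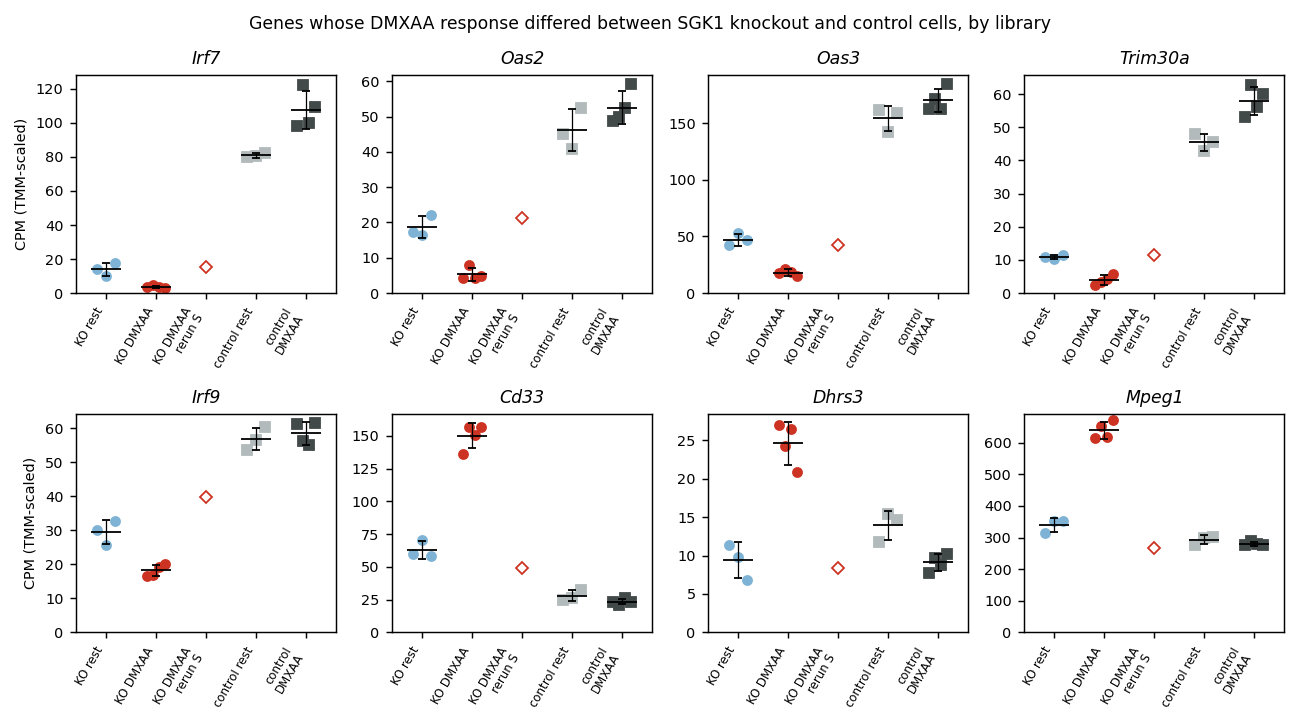
Level in CPM (vertical axes, from 0) by library, with groups, symbols, means and SD as in the plot of Ifit1 and the other shared responses, for 8 genes whose DMXAA response differed between SGK1 KO and control cells. Irf7, Oas2, Oas3, Trim30a and Irf9 are lower, and Cd33, Dhrs3 and Mpeg1 higher, in the 4 treated knockout libraries than in the 3 at rest, while library S lies within or beyond the resting knockout range on the side away from the treated libraries for all 8.

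Promoter sequences of genes that rose and genes that fell are shown to compare the interferon-stimulated response element (ISRE) core, the paired GAAA element read by IRF factors. The windows run from 250 bases before to 50 after the start site, 5′ to 3′ along the gene, from RefSeq on GRCm38.p6. Capitals mark GAAANNGAAA on either strand, where neighbouring matches may overlap. Ifit1, Isg15 and Cxcl10 rose, and Oas3, Trim30a and Irf7 fell. The Irf7 window holds no match.
Ifit1 (chr19:34640639-34640938, plus strand): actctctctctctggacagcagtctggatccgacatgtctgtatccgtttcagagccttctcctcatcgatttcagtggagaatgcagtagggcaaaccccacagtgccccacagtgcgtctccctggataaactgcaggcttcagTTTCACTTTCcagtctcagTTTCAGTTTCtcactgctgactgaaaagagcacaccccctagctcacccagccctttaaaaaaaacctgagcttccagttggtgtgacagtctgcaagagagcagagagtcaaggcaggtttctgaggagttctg
Isg15 (chr4:156200769-156201068, minus strand): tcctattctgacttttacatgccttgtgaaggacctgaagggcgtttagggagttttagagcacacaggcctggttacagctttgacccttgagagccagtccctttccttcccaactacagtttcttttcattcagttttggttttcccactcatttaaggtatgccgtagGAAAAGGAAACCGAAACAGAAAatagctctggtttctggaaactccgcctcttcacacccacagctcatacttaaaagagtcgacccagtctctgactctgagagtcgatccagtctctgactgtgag
Cxcl10 (chr5:92348840-92349139, minus strand): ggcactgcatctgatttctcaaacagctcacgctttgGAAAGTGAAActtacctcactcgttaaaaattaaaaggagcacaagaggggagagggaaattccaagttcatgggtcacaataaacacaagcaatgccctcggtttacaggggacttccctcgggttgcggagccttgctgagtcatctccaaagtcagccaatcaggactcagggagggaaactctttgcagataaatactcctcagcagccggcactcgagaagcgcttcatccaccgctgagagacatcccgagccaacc
Oas3 (chr5:120777610-120777909, minus strand): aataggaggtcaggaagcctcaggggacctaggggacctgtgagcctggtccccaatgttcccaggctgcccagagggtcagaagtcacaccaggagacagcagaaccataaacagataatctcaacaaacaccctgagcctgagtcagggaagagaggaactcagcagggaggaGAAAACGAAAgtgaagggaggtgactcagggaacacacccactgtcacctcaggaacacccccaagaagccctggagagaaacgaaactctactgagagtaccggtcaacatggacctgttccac
Trim30a (chr7:104465144-104465443, minus strand): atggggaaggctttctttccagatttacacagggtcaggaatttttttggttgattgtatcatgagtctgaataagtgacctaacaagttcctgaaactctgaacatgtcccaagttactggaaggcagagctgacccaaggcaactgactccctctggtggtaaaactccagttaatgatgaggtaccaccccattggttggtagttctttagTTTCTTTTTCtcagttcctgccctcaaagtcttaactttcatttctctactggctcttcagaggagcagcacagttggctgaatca
Irf7 (chr7:141266375-141266674, minus strand): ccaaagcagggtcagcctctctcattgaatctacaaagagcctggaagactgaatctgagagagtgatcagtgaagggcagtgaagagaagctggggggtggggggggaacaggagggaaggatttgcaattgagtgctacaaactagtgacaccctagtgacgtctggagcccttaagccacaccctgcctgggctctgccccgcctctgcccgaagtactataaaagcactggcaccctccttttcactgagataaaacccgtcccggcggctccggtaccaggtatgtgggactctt

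The core was found in 7 of 16 windows (43.8%) of genes of the early and interferon-stimulated lists that were called higher, in 7 of 12 windows (58.3%) of those called lower, and in 32 of 69 windows (46.4%) of all genes of these lists in the table. The share was 3.44% of all 32851 windows and 3.17% of the 12269 windows of genes tested. It was 5.64% of the 514 windows of genes called higher, of which 377 of 479 matched the table, and 4.55% of the 286 windows of genes called lower, of which 217 of 284 matched. In Ifit1 the matches began 104 and 85 bases before the start site, in Isg15 78, 72 and 66 bases before it, in Cxcl10 213, in Oas3 75 and in Trim30a 36. The kB pattern GGGNNNNNCC, searched the same way and able to overlap itself on both strands, was in 65.8% of windows of genes called higher, 71.7% of those called lower, 66.2% of those tested and 50.8% of all. In the same order the shares were 5.64%, 6.99%, 5.0% and 7.81% for the AP-1 site TGANTCA. They were 4.28%, 2.1%, 3.14% and 1.79% for the cyclic AMP element TGACGTCA, and 12.1%, 10.8%, 10.0% and 7.15% for the E-box CACGTG. A match is a description of the letters and not a bound site.

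Of 39 lysosome and TFEB target genes 9 were called higher and none lower (median 0.35), beside 3.27% higher and 1.94% lower over all genes. In control cells 4 of 38 were called higher, beside 4.39% over all genes. The galactosidase gene Gla rose (14.2 to 19.96 CPM at rest and 47.4 to 60.8 CPM with DMXAA, 1.66 ± 0.15), Flcn (31.6 to 44.7 CPM at rest and 88.9 to 113 CPM with DMXAA, 1.43 ± 0.14) and its partner Fnip2 by 1.29. The protease genes Ctsb (0.84) and Ctsz (0.62), Hexa (0.56) and the proton pump genes Atp6v1a (0.51) and Atp6v0d1 (0.51) rose. S lay below all 3 resting libraries for Atp6v1a (222 CPM). The lysosome count was 4 with S added, 4 without E or Q and 5 without F. With DESeq2 17 rose, beside 908 higher and 701 lower over all genes. With the length trend removed 13 rose and 2 fell, beside 859 and 898 over all genes. Of 27 macrophage identity genes 2 rose and 4 fell, with 5 rises without D, 3 without F and 2 falls without F or Q, and with 5 rises and 6 falls with the length trend removed. Mpeg1, the gene of the pore-forming protein perforin-2, went from 314, 353 and 351 CPM to 616, 653, 617 and 671 CPM (0.91 ± 0.09), with S at 267 CPM, and the inhibitory Fc receptor gene Fcgr2b rose (1.76). Cx3cr1 (-0.74), Lpl (-0.78) and Cebpa (-0.93) fell. The costimulation genes Cd83 (1.51 ± 0.12, 22.5 to 30.9 CPM at rest and 74.2 to 78.3 CPM with DMXAA), Icam1 (0.99) and Havcr2 (0.62) rose and Vsir fell (-0.66), with 10 of 14 not passing and no fall without E, F or Q.

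On the glycolysis, sterol and cell cycle lists 4 of 26, 6 of 29 and 3 of 41 genes were called, beside 3.27% higher and 1.94% lower over all genes tested. Acod1, which makes itaconate, rose from 1.8, 2.33 and 1.52 CPM to 68.9, 45.4, 69.6 and 37.4 CPM (4.87 ± 0.29), and was 1 of 2 rises and 2 falls among 26 glycolysis and hypoxia genes, with Pfkp (0.71), Hk1 (-0.46) and Pdk1 (-0.41). Neither fall was called without E, F, O or Q, and 7 were called lower with the length trend removed. Insig1, which holds SREBP in the endoplasmic reticulum, rose (99.6 to 119 CPM at rest and 251 to 288 CPM with DMXAA, 1.28 ± 0.1), and Mylip, which degrades the LDL receptor, rose (0.94). Of 29 sterol genes tested 4 fell, Hmgcs1 (-0.49), Sqle (-0.38) and Hsd17b7 (-0.6) among them, against 11 falls in control cells. No sterol gene was called lower without E, F, O or Q, and 2 were without R, while 9 were with 46 libraries. Ccnd1, the gene of cyclin D1, fell from 638, 669 and 674 CPM to 321, 347, 312 and 389 CPM (-0.95 ± 0.1), and Kif20a (-0.45) and Rrm1 (-0.38) fell less. These were the 3 calls among 41 cell cycle genes (5 falls without D, 1 without E, F, O or Q), and 13 were called lower and 2 higher with the length trend removed.

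The 10 largest rises outside the lists included 3 cell surface receptors. Ccrl2, an atypical chemoattractant receptor on chromosome 9, lay at 0, 0.0852 and 0 CPM at rest, which is under the floor, and at 21.8, 7.25, 16.2 and 8.07 CPM with DMXAA, with 5.38 CPM in S. Hdc, the enzyme that makes histamine, lay at 0.362, 0.183 and 0 CPM at rest and 6.99, 5.56, 8.04 and 3.27 CPM with DMXAA. Rgs1 (3.93 ± 0.37), Rasgef1b (3.54 ± 0.14), the niacin receptor gene Hcar2 (3.36) and the deubiquitinase gene Otud1 (3.24) rose in all 4 libraries. Pdcd1, the gene of the checkpoint receptor PD-1, rose from 12.1, 9.92 and 11.4 CPM to 105, 79.1, 93.9 and 67.4 CPM (2.95 ± 0.17, adjusted p = 1.22e-05), and S held 117 CPM. Arid5a (2.46), which stabilises cytokine transcripts, Pnrc1 (2.42) and Rnf225 (2.37) completed the 10 highest. Each was called higher in control cells too.

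The largest falls outside the lists held genes that fell in control cells too and genes that were not called there. Neat1, the long non-coding RNA of paraspeckles, went from 35.7, 31.6 and 50.04 CPM to 6.02, 4.39, 5.83 and 4.27 CPM (-2.94 ± 0.2), and control cells gave -2.98 ± 0.2. Arrdc3 (-2.49), Jrk (-2.31), Ap5b1 (-1.6) and Zkscan8 (-1.52) also fell in both. Lars2, the mitochondrial leucyl-tRNA synthetase gene, fell in both (-1.53 and -1.26), with resting library F at 1029 CPM and Rn18s also lower in the treated group. Itga6 (-1.72 ± 0.14), Dmpk (-1.51 ± 0.13), Slc24a3 (-1.48) and Epsti1 fell in the knockout and were not called in control cells. Dmpk lay at 87.98, 78.6 and 86.2 CPM at rest and 29.2, 33.3, 24.2 and 32.5 CPM with DMXAA, while S held 91.6 CPM. Altogether 1473 genes (10.0%) had all 4 treated libraries above all 3 resting ones and 1325 (9.04%) had all 4 below.

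The response itself differed between knockout and control cells for 80 of 15924 genes, 45 with a higher change in the knockout (0.283%) and 35 with a lower one (0.220%). Of the 35, 28 were called lower in the knockout. The interferon-stimulated list supplied 11 of them, of 49 tested, with Oas2, Xaf1, Slfn5, Trim30a, Oas3, Mndal, Lgals3bp, Sp100, Oas1a and Irf9 among them. Irf7 had the lowest difference (-2.3 ± 0.23, adjusted p = 0.000197), followed by the ion exchanger gene Slc24a3 (-2.09 ± 0.43), Xaf1 (-2.06 ± 0.3), Oas2 (-2.0 ± 0.27), the lectin gene Lgals9 (-1.98 ± 0.35) and Epsti1 (-1.96 ± 0.41). Usp18, which removes ISG15 and blocks interferon receptor signalling, belonged to the same set (-1.42 ± 0.22, adjusted p = 0.00575), with a rise in control cells (0.76 ± 0.1). Called in opposite directions in the knockout and control cells were 5 genes: Irf7, Trim30a and Mndal fell in the knockout and rose in control cells, while Dhrs3 and Hpgd rose in the knockout and fell in control cells.

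Of the 45 higher differences, 44 were called higher in the knockout. Dhrs3, a retinal reductase gene, lay at 11.4, 9.85 and 6.84 CPM at rest and 26.98, 24.2, 26.5 and 20.9 CPM with DMXAA in the knockout, and at 11.8 to 15.4 and 7.75 to 10.2 CPM in control cells (2.01 ± 0.25, adjusted p = 0.000996). Cd33 (ENSMUSG00000004609.12, chr7:43173640-43193852 on GRCm39), an inhibitory sialic acid receptor, lay at 59.5, 70.6 and 57.98 CPM at rest and 136, 157, 151 and 157 CPM with DMXAA, against 24.9 to 32.7 and 21.1 to 26.02 CPM in control cells (1.53 ± 0.16, adjusted p = 0.000197). The creatine transporter gene Slc6a8 (1.5 ± 0.24) and Mpeg1 (0.99 ± 0.09) had the same form, a rise in the knockout with no call in control cells. Oasl2 (1.81 ± 0.3), Acod1 (1.53 ± 0.29) and Ifih1 (1.23 ± 0.26) rose in both. For Acod1 the resting level was 1.88 ± 0.409 CPM in the knockout and 4.26 ± 0.377 CPM in control cells, and treated libraries overlapped (37.4 to 69.6 and 38.1 to 48.9 CPM). For Oasl2 the resting levels were 0.667 ± 0.271 and 3.46 ± 0.13 CPM, and the treated knockout (12.7 to 13.6 CPM) stayed below treated control cells (15.9 to 22.8 CPM). Apol9a had no count in the resting knockout and 0.243 to 0.906 CPM with DMXAA, with a mean at least 3.19-fold over the floor, against 1.68 to 3.19 and 6.09 to 12.2 CPM in control cells.

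None of these differences was called by edgeR when S joined the treated knockout libraries. No gene passed in either direction, and 1414 genes had an unadjusted p under 0.05, against 1501 without S. Irf7 then had a difference of -1.59 (adjusted p = 0.501), and Cd33 one of 1.32 (adjusted p = 0.401). S held 49.1 CPM of Cd33, 8.43 of Dhrs3, 4.07 of Slc6a8 and 15.5 of Irf7, nearer to the resting than to the treated knockout libraries for each. It held 15.6 CPM of Oasl2, 41.9 of Acod1 and 101 of Ifih1, nearer to the treated ones. Over the 35 genes with a lower difference the median change was -0.939 for O to R and -0.082 for S alone, and over the 45 with a higher one it was 0.937 and 0.404. Both medians rest on the same resting libraries. Leaving out 1 library gave 104 higher and 50 lower differences without D, 20 to 28 higher without E, F, A, B, C, K, M or N, and 17 to 23 lower without E, F, A, B, K, L, M or N.

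S shared the common response more closely. Of the 290 genes called higher in both genotypes S lay above all 3 resting libraries for 272 (93.8%), and of the 113 called lower in both it lay below for 110 (97.3%). Over all 14663 genes tested those shares were 36.5% and 30.3%. Of 189 genes called higher in the knockout and not called so in control cells S lay above for 131 (69.3%), and of 171 called lower it lay below for 143 (83.6%). For 17 of the 35 genes with a lower difference S was below the resting libraries, for 9 within their range and for 9 above it. These genes were chosen with the same resting libraries that S is set against, so the shares are a description.

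**Figure D4:**
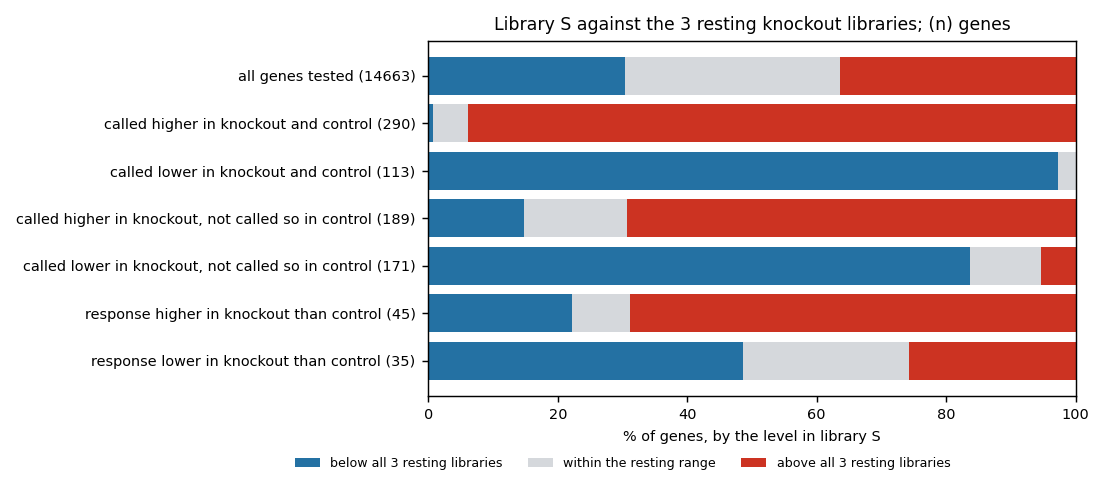
Share of genes (horizontal axis, %) for which the level in rerun library S lies below, within or above the range of the 3 resting SGK1 KO libraries, for all 14663 genes tested and for 6 sets of called genes (rows, number of genes in brackets). S is above the resting libraries for 93.8% of genes called higher in both genotypes, and below them for 48.6% of genes whose response was lower in the knockout.

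Transcript length moved with the response of the knockout. Among 5 equal groups of tested genes ordered by length, the median log2 fold change was 0.276 in the shortest and -0.135 in the longest, against 0.036 and -0.031 in control cells. With the length trend removed the medians were -0.069 and -0.032. Genes called lower had a median log2 length 0.513 above the reference and genes called higher 0.026, against -0.125 for all genes tested. Ribosomal protein genes, which are short, had a median log2 fold change of 0.559 in the knockout, with 3 of 80 called higher. With the trend removed the median was 0.232 and 13 of 80 were called higher, beside 859 of all 14663 genes tested. In control cells the median was 0.027 with none called. Of the 112 genes that the naming rule gave with a tested response, Sgk1 and Sgk3 included, 110 were called. With the length trend removed 110 were called, and all 112 kept their sign. Apart from Sgk1 and Sgk3 these genes were named because they were called. Those outside the lists also had to be called with the trend removed, so these counts are partly fixed by the choice. Without E, F and P, the 3 libraries with slopes above 0.1, 171 genes were called higher and 31 lower, and 62 of the 112 were called. That fit has D as the single resting library, which is assumed to vary like the treated ones. Without R as well, whose slope exceeded 0.1 among genes of at least 5 CPM, D against O and Q gave 1039 higher and 571 lower.

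**Figure D5:**
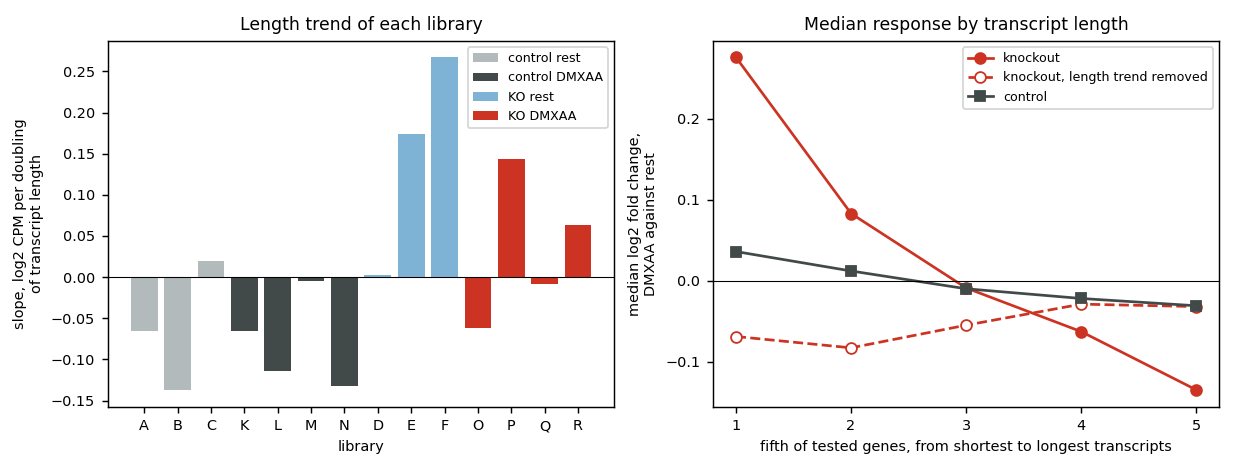
Left, slope of log2 CPM on log2 transcript length for each b2 library of control and SGK1 KO cells (vertical axis, per doubling of length, relative to the mean of the 20 b2 libraries). Right, median log2 fold change with DMXAA in 5 equal groups of tested genes ordered by transcript length, in SGK1 KO cells with and without removal of the trend and in control cells. E, F and P have slopes of 0.174, 0.267 and 0.143, and the median falls from 0.276 to -0.135 from the shortest to the longest group in the knockout.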

How the data were processed

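Poly-A RNA of RAW264.7 cells was sequenced from random-hexamer libraries, per the labels' protocols. The deposited tables hold estimated counts and TPM for 55416 genes of GENCODE M27 on GRCm39, and the submitters' processing notes name STAR 2.7.9a and StringTie 2.2.0. The deposited estimated counts were rounded to whole numbers before use. Of the values from 1 to 16, 17.5% were 4, so 1 read pair was taken as about 4 counts. The floor was taken as 3 pairs, or 12 counts per library. The unit of about 4 counts per pair is in doubt. Its value was used only for the floor and the bounds set from it. The fits used the deposited counts on their own scale. How that scale bears on the low-count filter and the tests was not examined. Reads of gene families and of overlapping genes on opposite strands may not be told apart.

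The 3 resting and 4 treated SGK1 KO libraries were fitted alone with edgeR 4.0.16 in R 4.3.3 (TMM scaling, its default low-count filter, robust quasi-likelihood test, Benjamini-Hochberg adjustment over all genes tested, threshold 0.05). The 7 control libraries were fitted likewise, and the difference of the responses was tested on all 14. The length trend was removed with per-library offsets from a spline (4 degrees of freedom) of log2 CPM on transcript length, taken from the deposited counts and TPM, over genes of at least 5 CPM. Alternatives used DESeq2 1.42.0, limma 3.58.1 on log2 of the deposited TPM + 0.5, other library sets and single libraries left out. Steps across many genes were tested on simulated data. SD are over libraries, and intervals of counting error were not used.

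The members, the 21 gene lists and the tests were chosen with earlier results of these data known. The genes named are Sgk1 and Sgk3 and up to 6 called members of each list with the largest changes. Ligands, receptors and feedback genes are named whether called or not. Outside the lists they are the 10 highest and 10 lowest changes among called genes without overlap. These had at least 5 CPM in the higher group and the same call with the length trend removed. The 6 highest and 6 lowest differences were taken among genes whose difference was called with and without the length trend. They needed at least 5 CPM in the highest knockout or control group, and overlap was not considered. Other called members are named to complete a list's count, except a few genes that are counted but not reported here by name. Promoter windows came from RefSeq on GRCm38.p6, an older build than the files', and were matched by symbol.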

Additional observations from a re-analysis of the deposited data

Results flagged for a closer look

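Single libraries stood apart in 3 of 128 groups of 4 examined, where chance flags about 1 in 20. Oas2 lay at 7.89 CPM in treated library P against 4.14 to 4.78 in O, Q and R, a gap of 0.83 of the group's range. Zmat3 lay at 27.8 CPM in O against 32.7 to 33.6 (0.847) and Cx3cr1 at 560.4 CPM in R against 450 to 456 (0.944).

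The response to DMXAA differed between SGK1 KO and control cells, by edgeR's test of the difference, for the 12 genes the naming rule gave. The log2 difference was -2.3 for Irf7, -2.09 for Slc24a3, -2.06 for Xaf1, -2.0 for Oas2, -1.98 for Lgals9 and -1.96 for Epsti1. It was 1.5 for Slc6a8, 1.53 for Cd33, 1.53 for Acod1, 1.81 for Oasl2, 2.01 for Dhrs3 and 6.4 for Apol9a. The value for Apol9a depends on the prior count, since the resting knockout had no count of it. With library S added to the treated group these became -1.59, -1.55, -1.49, -1.31, -1.29 and -1.17 for the first 6 and 1.32, 1.32, 1.46, 1.87, 1.81 and 6.47 for the others, and none passed. With S alone as the treated group Irf7 gave -0.249 and Cd33 -0.095, while Acod1 gave 1.123 and Oasl2 2.058. The source of this divergence between S and O to R was not tested.

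Ifnb1, at 0 in the resting SGK1 KO libraries, reached 3.22 CPM in rerun library S, which is in none of the main groups.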

How the results depend on the processing

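No paired analysis was possible because the library letters are shared by no pair of the groups compared. For the knockout response, counts higher and lower were 908 and 701 with DESeq2, 979 and 877 with all 20 b2 libraries in the fit, 2294 and 2116 with 46 libraries of b1 and b2, and 859 and 898 with the length trend removed. Without E, F and P, which leaves D alone at rest, they were 171 and 31. With 2 choices made after seeing the data they were 1039 and 571 without E, F, P and R, and 180 and 36 with S alone as the treated group, where a lone library is assumed to vary like the other group. With limma on TPM 293 were higher, and the median over all genes was -0.107 against 0.008. Leaving out 1 library gave 245 to 805 higher and 71 to 503 lower. For the difference from control cells, counts were 138 and 87 with DESeq2, 319 and 200 with 46 libraries, 127 and 90 with the length trend removed, 15 and 12 without E, F and P, and 0 and 0 with S added or S alone. Higher differences numbered 10 with limma on TPM (27.8% of its calls against 56.2%), and lower ones 18 without E, F, P and R. Leaving out 1 library gave 20 to 104 higher and 17 to 50 lower. In control cells, with alternatives added after seeing the data, 419 were higher and 243 lower with 20 libraries, 635 were lower with DESeq2, 899 with the length trend removed and 229 with limma on TPM. There, leaving out 1 library gave 375 to 594 higher and 152 to 363 lower. The cause of these changes was not tested.

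With S alone, called changes turned sign for Oas2 (0.196), Xaf1 (0.11), Epsti1 (0.446), Dmpk (0.121), Slc24a3 (0.226) and Mpeg1 (-0.345), and called differences for Oas2 (0.007), Lgals9 (0.031), Epsti1 (0.252) and Cd33 (-0.095). With limma on TPM the difference of Apol9a was -0.785. Of the 112 named responses 73 lost their call in at least 1 alternative, and so did all 12 named differences. Size factors by the RLE method kept all 110 named calls. Depth limits Ifnb1, Ccl2, Ccrl2 and Apol9a, which had few or no counts at rest. It also limits genes such as Ifit1, Ccl5, Cxcl2, Egr2, Maff and Hdc, which had few or no counts in at least a single resting knockout library.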
